A study of Mus musculus with 6 samples.

Results

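The genes described here encode ligands of the B7 family, CD80, CD86, ICOS ligand, PD-L1 and PD-L2, together with CD83, a surface protein of activated dendritic cells. They are 6 genes, Cd80, Cd86, Icosl, Cd274, Pdcd1lg2 and Cd83, of 17097 genes that have a probe set naming a single gene, and they were found by exact symbol. All their probe sets were taken, 11 of the 45141 on the array: 4 for Cd80, 2 each for Cd86 and Icosl and 1 each for Cd83, Cd274 and Pdcd1lg2. The samples were blood cells sorted as T cells from 3 female C57BL/6 mice, labelled A, C and D and 6 to 8 weeks old. Each mouse gave a pair of sorted fractions. One fraction was CD3+ CD62L- CD44High CD11c+ and the other CD3+ CD62L- CD44High CD11c-, with 300 cells in each sample, and the mice were naive. The mice of both fractions had received 3 mg of Depo-Provera, a progestin that synchronizes the cycle, and the labels place it 5 days before blood was taken. After amplification, the RNA of every sample went onto a separate single-colour Affymetrix array. The comparison is therefore between the cells sorted as CD11c+ and those sorted as CD11c- within the same CD3+ CD62L- CD44High gate and animal.

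T cells need a second signal beside their antigen receptor, and the B7 ligands on antigen presenting cells provide or withhold it. CD80 and CD86 bind CD28, which promotes activation, and CTLA-4, which restrains it and binds them more tightly. ICOS ligand binds ICOS on activated T cells, and PD-L1 and PD-L2 bind the inhibitory receptor PD-1. CD86 and MHC class II are taken off the surface of resting dendritic cells through ubiquitination by MARCH1, and CD83 opposes that step, so that CD83, CD86 and MHC class II go up together when dendritic cells mature. Activated T cells and B cells can also carry several of these ligands.

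The genes of PD-L1 and PD-L2 are neighbours, and the 250 bases before their start sites are shown because they stand before the pair that shares PD-1 as receptor. They are read 5' to 3' from the RefSeq promoter table (GRCm38.p6, plus strand), which holds 4 of the 6 genes, with chr19:29367188-29367437 for Cd274 and chr19:29410669-29410918 for Pdcd1lg2, and the starts lie 43.5 kb apart. Capitals mark the matches on either strand, which do not overlap.
Cd274: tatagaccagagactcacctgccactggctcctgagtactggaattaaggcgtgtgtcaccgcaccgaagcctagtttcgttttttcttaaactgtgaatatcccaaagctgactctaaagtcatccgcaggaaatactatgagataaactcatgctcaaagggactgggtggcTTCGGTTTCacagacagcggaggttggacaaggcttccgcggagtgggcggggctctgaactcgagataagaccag
Pdcd1lg2: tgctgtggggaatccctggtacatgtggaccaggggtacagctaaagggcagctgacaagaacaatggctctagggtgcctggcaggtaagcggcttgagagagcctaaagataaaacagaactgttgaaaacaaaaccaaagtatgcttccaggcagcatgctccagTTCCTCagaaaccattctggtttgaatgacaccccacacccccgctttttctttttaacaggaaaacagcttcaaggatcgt

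The match before Cd274 is to GAAANNGAA, the core of the interferon response element, and begins 76 bases before the start. GAAANNGAA is present in 7.13% of the 32851 promoters of this length. The match depends on the letters chosen: a first search used a form with 1 more A at the end, which 2.98% of promoters hold and 0 of these 4 did, and the form was shortened afterwards. The NF-kappaB form was likewise shortened by its first G (1.41% of promoters with the longer form, again 0 of 4). The match before Pdcd1lg2 is to GAGGAA, a core bound by PU.1, and begins 82 bases before the start, and 23.3% of the promoters hold it. Neither was found in the same window of Cd80 or Icosl, and TTCNNNGAA, the STAT core (7.02% of promoters), and GGNNTTTCC, a form of the NF-kappaB site (4.93% of promoters), were found in none of the 4 windows. The window of Icosl was rich in CpG, with 23 against 11 for Cd274 and 3 each for Cd80 and Pdcd1lg2. These matches describe the sequence, and binding was not measured.

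None of the 6 genes passed the test between the fractions, although all 6 had a higher mean in CD11c+ cells by their brightest probe set. Of the 11 probe sets, 9 had a higher mean in CD11c+ cells and 2 a lower one. With limma, blocking on the mouse and adjusting over all probe sets, 0 of 11 probe sets were higher and 0 lower at an adjusted p under 0.05, beside 0.957% higher and 0.168% lower among all 45141. Counted by gene, with the brightest probe set standing for it, the backgrounds were 1.40% higher and 0.222% lower. At an unadjusted p under 0.05, 1 of the 11 passed (Cd83), beside 13.5% of all probe sets. The log2 fold changes of the 6 genes ran from 0.05 for Cd274 to 1.28 for Cd83 with a median of 0.67, while the median over all genes was -0.09. Cd83 and Cd86 were higher in 3 of 3 mice, as were 12.6% of all genes. The 2 fractions did not overlap for 1 of the 6 genes (Cd86), beside 20.0% of all genes. The result depends on the scale: with arrays centred on the CD3 chains, which adds 0.739 to every log2 fold change, 6 of 6 genes were higher at an adjusted p under 0.05, as were 49.6% of all probe sets.

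The values are log2 signals, and a background level of 5.88 on that scale was taken from 39 genes of other tissues (the 95th percentile of their means). Cd83, Cd274 and Icosl had means above it in both fractions. Cd80 and Cd86 were above it in CD11c+ cells alone, and Pdcd1lg2 in neither. Levels of different probe sets are not compared, since each has its own affinity. In bulk samples, a higher signal can come from more cells with a transcript or from more transcript per cell, and these cannot be told apart.

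**Figure D1:**
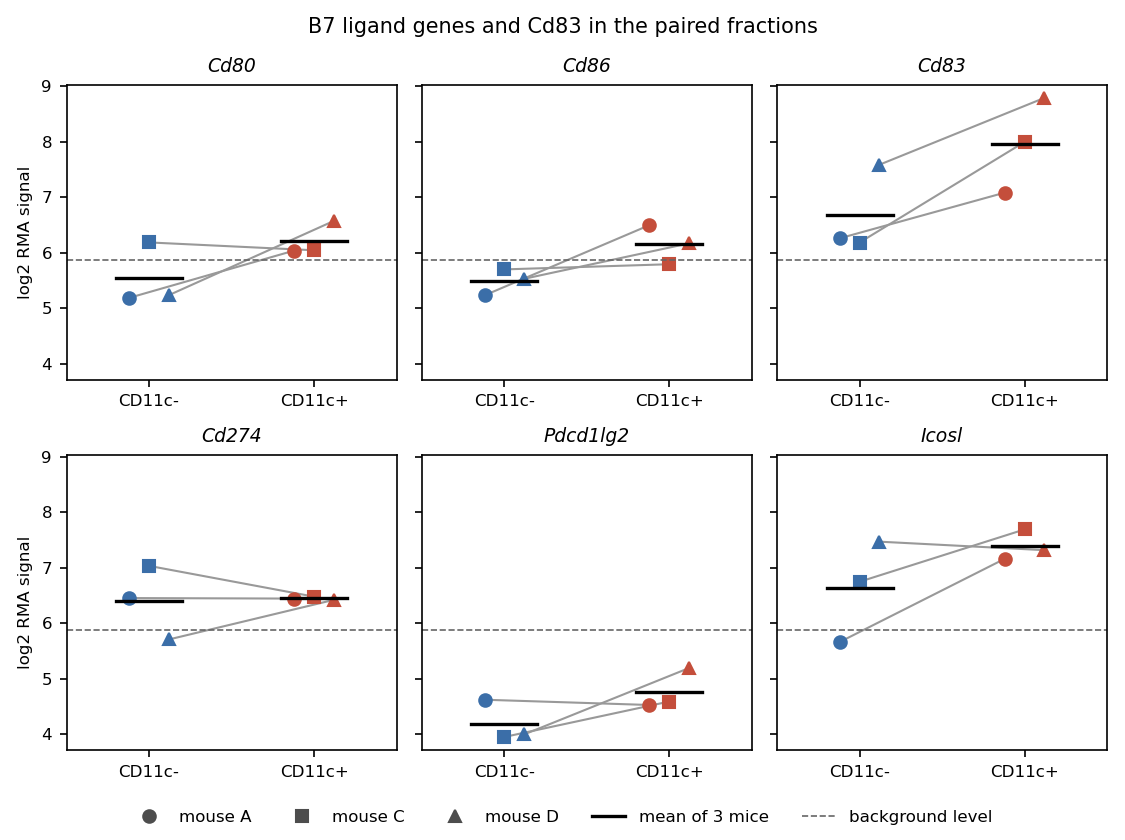
Log2 RMA signal (vertical axis) of the leading probe set of each gene in the CD11c- and CD11c+ fractions (horizontal axis), with lines joining the fractions of a mouse, short bars for group means and a dashed line marking background (5.88). Cd83 goes up in each mouse from a level that is highest in mouse D, and Cd274 lies at 6.42 to 6.48 in all CD11c+ samples while its CD11c- values spread from 5.71 to 7.03.

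Cd80 and Cd86 are the ligands shared by CD28 and CTLA-4. Cd80 had a log2 signal of 5.19, 6.19 and 5.24 in CD11c- cells of mice A, C and D, and of 6.04, 6.05 and 6.58 in CD11c+ cells. The values lay on either side of background, were higher in the CD11c+ cells of mice A and D and not of mouse C, and the fractions overlapped. The log2 fold change was 0.68 (standard error 0.32, 95% interval -0.17 to 1.53, adjusted p = 0.477 from limma). Of the other 3 probe sets of Cd80, none was above background in either fraction, and their log2 fold changes were 0.79, 0.30 and -0.08 (adjusted p = 0.494, 0.707 and 0.828). The second of the 4 differed most between mice, with 1.84 in mouse A, 0.08 in mouse C and 0.45 in mouse D. The values of Cd80 therefore differed by mouse. The probe set at -0.08 was not above background and lay close to the median of -0.0889 over all probe sets, so it shows no opposite direction. The leading probe set gave 0.35 without mouse D and 1.09 without mouse C, and the mean of all 4 gave 0.42.

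Cd86 had 5.23, 5.70 and 5.53 in CD11c- cells of mice A, C and D, and 6.50, 5.80 and 6.17 in CD11c+ cells. Each CD11c+ value was higher than each CD11c- value, but the difference in mouse C was only 0.09, against 1.26 in mouse A. The log2 fold change was 0.67 (standard error 0.26, 95% interval -0.03 to 1.36, adjusted p = 0.388). Since the CD11c- mean was not above background, the CD11c+ mean is 1.21-fold over the background level, and that of Cd80 1.27-fold. The dimmer probe set of Cd86, not above background, differed by 0.38 on the log2 scale (adjusted p = 0.476), again upward in 3 of 3 mice, with its largest difference, 0.76, in mouse C. The leading probe set gave 0.37 without mouse A.

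Icosl encodes the ligand of ICOS. Its leading probe set had 5.66, 6.75 and 7.47 in CD11c- cells of mice A, C and D, and 7.16, 7.69 and 7.32 in CD11c+ cells. The CD11c+ samples lay close together, while the CD11c- samples spread over 1.8 units and overlapped them, with mouse D a little lower in CD11c+ cells. The log2 fold change was 0.76 (standard error 0.35, 95% interval -0.17 to 1.69, adjusted p = 0.469). The other probe set gave 5.76, 5.72 and 5.69 in CD11c- and 5.65, 5.63 and 5.58 in CD11c+ cells, a log2 fold change of -0.11 (95% interval -0.44 to 0.22, adjusted p = 0.769). That probe set was not above background and was lower in 3 of 3 mice by nearly the same small amount. Its value lay close to the median of -0.0889 over all probe sets, so it gives no direction for the gene. The leading probe set gave 0.39 without mouse A and 1.22 without mouse D, and the mean of both probe sets 0.33.

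Cd274 and Pdcd1lg2 encode PD-L1 and PD-L2. Cd274 had 6.46, 7.03 and 5.71 in CD11c- cells of mice A, C and D, and 6.45, 6.48 and 6.42 in CD11c+ cells. The difference was close to 0 in mouse A, below 0 in mouse C and above 0 in mouse D. The log2 fold change was 0.05 (standard error 0.28, adjusted p = 0.952), with a 95% interval from -0.69 to 0.79, that is from 0.621-fold to 1.73-fold. Without mouse D it was -0.28. Pdcd1lg2 had 4.63, 3.95 and 4.001 in CD11c- cells and 4.53, 4.59 and 5.20 in CD11c+ cells. All of these are under the background level, and the log2 fold change of 0.58 (95% interval -0.17 to 1.33, adjusted p = 0.494) is that of a gene not measured above it. It was 0.27 without mouse D and 0.92 without mouse A.

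Cd83 came nearest to the threshold. It had 6.26, 6.19 and 7.59 in CD11c- cells of mice A, C and D, and 7.08, 8.00 and 8.79 in CD11c+ cells. Mouse D was high in both fractions, so that the fractions overlapped, yet within each mouse the CD11c+ cells were higher, by 0.82, 1.81 and 1.20. The log2 fold change was 1.28 (standard error 0.23, 95% interval 0.67 to 1.89), or 2.43-fold, with an unadjusted p of 0.00375 and an adjusted p of 0.115 in limma. Without the mouse block the adjusted p was 0.425, and without each mouse in turn the log2 fold change ran from 1.01 to 1.51.

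**Figure D2:**
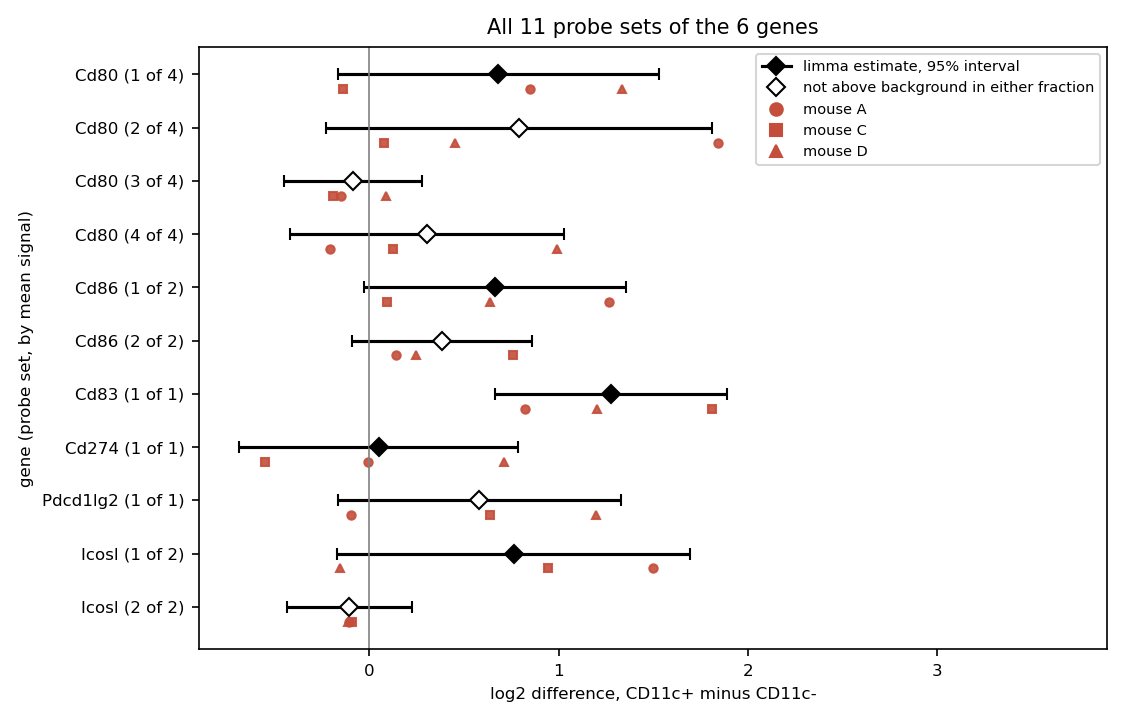
Log2 difference between CD11c+ and CD11c- cells (horizontal axis) for all 11 probe sets, ordered within a gene by mean signal (vertical axis), with black diamonds for the limma estimate, bars for its 95% interval and red symbols for each of 3 mice. Only the interval of Cd83, 0.67 to 1.89, lies above 0, before adjustment over all probe sets, and open diamonds mark probe sets not above background in either fraction.

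None of the other ligands of the same kind passed the test. Of 11 measured genes of other B7, butyrophilin-like and related ligands, 0 were higher and 0 lower at an adjusted p under 0.05 in limma (0 at an unadjusted p under 0.05), and the differences spanned -0.38 to 0.32 on the log2 scale (median -0.06). For 7 of these genes neither mean was above background. Vsir, which encodes the inhibitory ligand VISTA, had the lowest of these values (adjusted p = 0.39) and was lower in 3 of 3 mice. Among all 17097 genes, 4532 were lower in 3 of 3 mice.

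The receptors of the ligands were measured in the same arrays, and one of them fell in CD11c+ cells. Ctla4, the inhibitory receptor of CD80 and CD86, had 8.70, 8.58 and 8.19 in CD11c- and 6.18, 5.16 and 5.55 in CD11c+ cells of mice A, C and D. The fractions were far apart, and the log2 fold change was -2.86 (95% interval -3.46 to -2.25, adjusted p = 0.0226). Since its CD11c+ mean lay under background, the fall is given as at least 6.12-fold, from the CD11c- mean against that level. Here and below, such folds compare a group mean with the background level and leave out the spread between mice. The 95% interval of Ctla4 reaches -2.25, which is a smaller fall than 6.12-fold. Leaving out mouse A, when no probe set of the array passed, gave Ctla4 an adjusted p of 0.16, and leaving out mouse C 0.0504.

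Cd28, the activating receptor of the same ligands, had 9.59, 9.68 and 9.95 in CD11c- and 8.45, 7.93 and 8.18 in CD11c+ cells. Icos, the receptor of ICOS ligand, had 10.7, 10.7 and 10.9 in CD11c- and 9.57, 8.63 and 9.42 in CD11c+ cells. Both were lower in 3 of 3 mice without overlap, with log2 differences of -1.55 for Cd28 (adjusted p = 0.0555) and -1.56 for Icos (adjusted p = 0.0736), and neither passed the test. Beside them, 4532 of all 17097 genes were lower in 3 of 3 mice, and 20.0% of all genes had fractions without overlap. Pdcd1, which encodes PD-1, stayed under background in both fractions (log2 fold change -0.15, adjusted p = 0.819). Of 10 measured genes for receptors of B7 ligands and for related receptors, 1 was lower, 0 higher and 9 without a call, and the median difference was -0.54. Over 13 marker genes of T cells, of which Cd28 is 1, 2 were lower (Cd5 at -1.62 and Cd6 at -1.85, adjusted p = 0.0416 and 0.0209) and 0 higher, with a median of -0.69, and the mean of that list was 9.57 to 9.82 in CD11c- and 8.53 to 9.003 in CD11c+ samples. Cd4, the co-receptor of helper T cells, had -2.50 (adjusted p = 0.0973) and was lower in 3 of 3 mice. The part of these shifts in the receptor values was not tested.

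**Figure D3:**
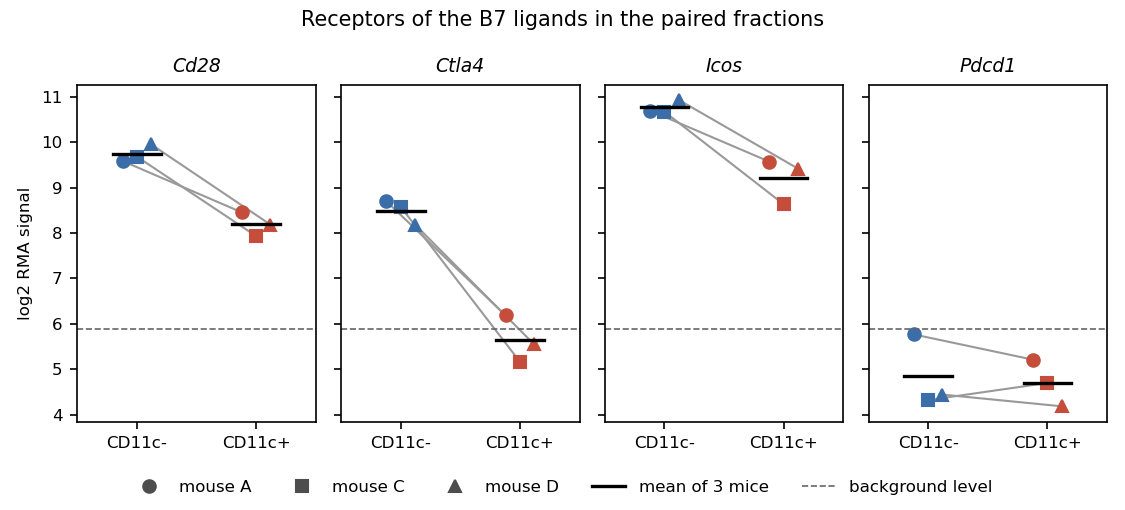
Log2 RMA signal (vertical axis) of Cd28, Ctla4, Icos and Pdcd1 in the CD11c- and CD11c+ fractions (horizontal axis), drawn as for the ligands. Ctla4 goes from above the background level of 5.88 in CD11c- cells to a mean under it in CD11c+ cells, Cd28 and Icos are lower in each mouse and stay far above it, and Pdcd1 lies under it throughout.

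The ligands were next set beside MHC class II, with which CD86 and CD83 are upregulated in maturing dendritic cells. Of 11 measured genes of class II presentation, 9 were higher, 0 lower and 2 did not pass, with a median log2 fold change of 4.25. H2-Ab1, which encodes a class II chain, read 5.46, 5.50 and 4.23 in CD11c- and 11.8, 12.02 and 11.9 in CD11c+ cells of mice A, C and D, and rose by 6.86 on the log2 scale (adjusted p = 0.00654), at least 66.1-fold over background. Another chain, H2-Eb1, rose by 5.93 (adjusted p = 0.0121, at least 49.6-fold), the invariant chain Cd74 by 5.62 (adjusted p = 0.00654) and H2-Aa by 4.93 (adjusted p = 0.00805). The highest upper limit of the 95% interval of any of the 11 ligand probe sets was 1.89, or 3.71-fold. For 7 of the 11 class II genes the lower limit was above it. Of the 11 ligand probe sets, 5 were above background in either fraction. By the mean over the 6 arrays, 27.8% of all probe sets lay above that level. For the other ligand probe sets the interval describes a signal at background and does not limit the change in transcript. Ciita, the master regulator of these genes, had 1.38 (adjusted p = 0.0501) and H2-Ob 0.67 (adjusted p = 0.222). Without mouse A, 0 of the 11 passed, as was so for every probe set, and H2-Ab1 was then at 7.11.

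Among genes that act on the ligand proteins, 1 of 7 was higher and 0 lower. Marchf1, which encodes the ligase that removes CD86 and MHC class II from the surface, had 3.70, 3.54 and 3.84 in CD11c- and 7.39, 7.08 and 7.10 in CD11c+ cells of mice A, C and D. It rose by 3.50 on the log2 scale (standard error 0.15, adjusted p = 0.00626), and with the CD11c- mean under background the rise is at least 2.49-fold. With the probe sets of the gene averaged, the log2 difference was 1.68 (adjusted p = 0.0152). Marchf8, a related ligase, had 2.31 (adjusted p = 0.0564) with neither mean above background. Cmtm6, whose product keeps PD-L1 at the surface, was well above background in both fractions and differed by -0.26 (adjusted p = 0.626).

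Among 18 measured transcription factors and signalling genes that act on B7 genes, 3 were higher, 0 lower and 15 did not pass. Spi1, which encodes PU.1, had 4.46, 4.49 and 4.40 in CD11c- and 8.21, 8.70 and 8.10 in CD11c+ cells of mice A, C and D, a rise of 3.89 (adjusted p = 0.00626), at least 5.52-fold. Irf5 (adjusted p = 0.0316) and Irf8 (adjusted p = 0.0313), both factors of myeloid and B cells, rose by at least 3.29-fold and 3.67-fold, and the CD11c- means of all 3 were not above background. The NF-kappaB family drives Cd80, Cd83 and Cd86 on activation. Its members measured here had log2 fold changes of 0.82 for Rel, -0.11 for Rela, -0.52 for Relb and -0.40 for Nfkb2. Their adjusted p ran from 0.298 to 0.781 in limma. Relb was not above background in either fraction, nor was Rel in CD11c- cells. With mouse A left out, Spi1, Irf5 and Irf8 were at adjusted p = 0.102, 0.152 and 0.14. Without mouse C, Irf5 and Irf8 were at 0.112 and 0.102, and Irf8 also missed the threshold without mouse D (0.0543) and with arrays centred on their median (0.0563).

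The other genes of dendritic cell activation gave no calls. Of 23 measured, 0 were higher and 0 lower at an adjusted p under 0.05 in limma, and the median difference was -0.02. At an unadjusted p under 0.05 there were 6, beside 2534 of all 17097 genes. The 6 were Il15, Il15ra and Marcksl1, higher in CD11c+ cells, and Traf1, Cd200 and Socs2, lower in them. Cd200 was not above background in either fraction. Cd40, the receptor through which T cells license dendritic cells, had 7.86, 6.84 and 6.48 in CD11c- and 8.41, 7.10 and 6.43 in CD11c+ cells of mice A, C and D. Its levels followed the mouse more than the fraction, and the log2 fold change was 0.25 (95% interval -0.20 to 0.70, adjusted p = 0.628). Ccl22, Il12b and Fscn1, products of mature dendritic cells, were among 11 of the 23 genes not above background in either fraction. Of the 23, 9 were above it in CD11c- cells and 12 in CD11c+ cells. Ccl17 was above it in CD11c+ cells alone, at 1.08-fold over the level. Il15, a cytokine presented by dendritic cells and monocytes, had the lowest adjusted p of the list (0.115), with each mouse higher, but its CD11c- mean was under background and its CD11c+ mean 1.02-fold over it.

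**Figure D4:**
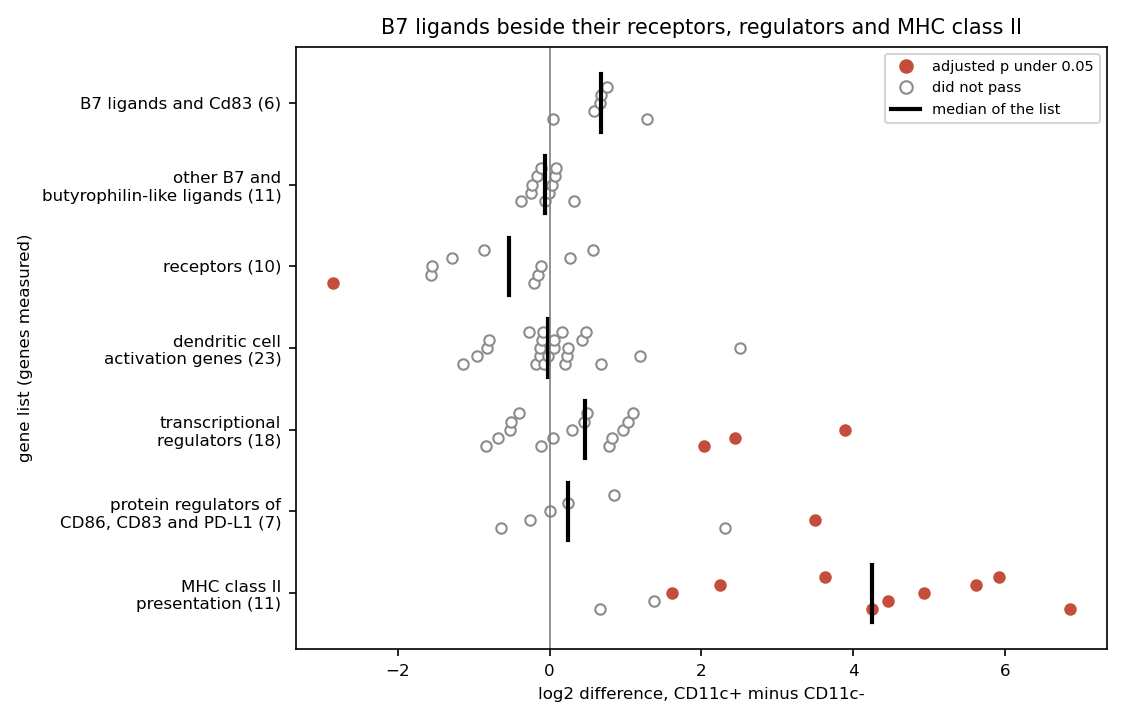
Log2 difference between CD11c+ and CD11c- cells (horizontal axis) of each gene in 7 lists (vertical axis, number of genes measured in brackets), with filled red circles for an adjusted p under 0.05, open grey circles for genes that did not pass and black bars for the median. The B7 ligands and Cd83 lie between 0.05 and 1.28 with none filled, and 9 of 11 genes of MHC class II presentation are filled with a median of 4.25.

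Markers of several other cell types moved with the CD11c+ fraction. Of 16 genes of conventional dendritic cells 5 were higher and 0 lower, with list means of 5.19 to 5.26 in CD11c- and 6.63 to 6.96 in CD11c+ samples. Whether or not they passed, 12 were higher and 3 lower in 3 of 3 mice, with Itgae at -1.09 (adjusted p = 0.0549) among the lower. Cd209a (adjusted p = 0.0187), Sirpa (0.0118), Clec10a (0.00498) and Cd24a (0.0285) rose from CD11c- means under background, by at least 17.7-, 12.97-, 8.001- and 1.97-fold against that level. Wdfy4 also passed (adjusted p = 0.0217 in limma). Flt3 and Batf3 were above background in CD11c+ cells alone and did not pass (adjusted p = 0.173 and 0.12 in limma). Zbtb46 and Xcr1 were among 5 of the 16 genes not above background in either fraction. Of 17 genes of monocytes and macrophages 7 were higher and 0 lower (list means 5.25 to 5.30 and 7.36 to 7.64), among them Lyz2, Mpeg1, Cd68 and F13a1, by at least 25.6-, 9.99-, 9.20- and 1.77-fold in the same way. In that list 15 genes were higher and 2 lower in 3 of 3 mice, with Ms4a6c at -1.02 (adjusted p = 0.149) among the lower. Of 13 genes of basophils and mast cells 8 were higher (3.84 to 3.94 and 6.85 to 7.44), among them Gata2, Cyp11a1, Ms4a2 and Cpa3, by at least 15.7-, 12.8-, 11.5- and 6.04-fold, with Kit under background throughout. Of 13 genes of B cells 2 were higher (4.71 to 5.11 and 5.48 to 6.20), Pax5 by at least 1.49-fold and Fcer2a with neither mean above background. Of 10 genes of NK cells 3 were higher (6.07 to 6.28 and 7.02 to 7.32), Gzma by 3.66 and Klrd1 by 1.59 on the log2 scale and Eomes by at least 2.70-fold, and Klrb1c was lower by at least 1.92-fold. Of 7 genes of plasmacytoid dendritic cells 1 passed (5.07 to 5.32 and 5.48 to 5.82), Tcf4, with neither mean above background, and the median log2 difference of that list was -0.17. Of 12 genes of neutrophils 1 was higher (3.72 to 4.07 and 4.33 to 4.35), Csf3r, by at least 1.498-fold, with a median of -0.05 and 10 genes above background in neither fraction. The medians of the other lists were 0.98 for conventional dendritic cells, 2.26 for monocytes and macrophages, 4.22 for basophils and mast cells, 0.75 for B cells and 0.95 for NK cells. The part of these cell types in the ligand values was not tested. Of the genes of the sort, Itgax, which encodes CD11c, was higher in CD11c+ cells by at least 8.57-fold (adjusted p = 0.0387). Both fractions are labelled CD3+, and the 4 CD3 chains were high in both but lower in CD11c+ cells in 3 of 3 mice, from -0.49 to -1.19 on the log2 scale (adjusted p from 0.0611 to 0.214), while Cd44 differed by -0.00761.

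The genes nearest to each ligand were found by the root mean square difference of the 6 centred log2 values, among about 6650 genes above background in a fraction. The nearest were Prkab1 for Cd86 (0.0619), Osbpl5 for Cd80 (0.0985), Esd for Icosl (0.0805), Slc9a8 for Cd274 (0.0594), Plekhg5 for Pdcd1lg2 (0.125) and Tnfaip8 for Cd83 (0.257). No other ligand was among the 3 nearest genes of any of the 6, and none of these 18 genes passed the test. Few of the genes compared were ligands, and Pdcd1lg2, not above background, could not be listed, so that absence says little about the ligands. The 6 points share 3 mice and 2 fractions, so the measure describes the arrays alone. Cd83 had the most distant neighbours, with Nav1 at 0.297 and Specc1 at 0.325 after Tnfaip8. The measure was not scaled by the spread of a gene, so a wide spread by itself makes distances larger. Cd83 ran from 6.19 to 8.79 over the 6 arrays.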

How the data were processed

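Per the labels, the authors normalized and summarized the arrays by RMA to log2 signals, deposited for 45141 probe sets, and the submitters' processing notes name RMA and limma without versions. RMA equalizes the arrays' distributions, which hides total RNA per cell. In the platform annotation 28898 probe sets carry 1 gene symbol, 551 several and 15692 none. Every probe set was tested in limma 3.58.1 (R 4.3.3), two-sided, with the mouse as a fixed block and Benjamini-Hochberg adjustment, and 0.05 was the threshold. Precision is limited by the 6 arrays, which leave 2 residual degrees of freedom. Pairs come from the labelled mouse, and deviations within pairs correlated at 0.122, 0.0758 and 0.109. The code was tested on simulated data.

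Genes named were the ligands, up to 4 rises and 4 falls past the threshold per list, Cd40, Cd28, Ctla4, Icos, Pdcd1, the genes of the sort and the 3 nearest genes. Ccr7 belongs to that rule and was not analysed here. Vsir, Ciita, H2-Ob, Marchf8, Cmtm6, the NF-kappaB genes, Ccl22, Il12b, Fscn1, Il15, Zbtb46, Xcr1, Itgae, Ms4a6c, Kit, Cd44 and Cd4 are outside the rule and were picked once their values had been seen. The same holds for Ccl17, Il15ra, Marcksl1, Traf1, Cd200, Socs2, Flt3, Batf3 and Wdfy4. The ligands and lists were chosen with earlier results of these data known. The motifs were chosen with these results known, and 2 of the 4 were shortened after a first search. Alternatives were the block, normalization, filter, variance model, threshold, the probe set of a gene and each mouse left out.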

Additional observations from a re-analysis of the deposited data

How the results depend on the processing

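With each mouse left out, with a random or no replicate block, after cyclic loess, with median centring, a trended or robust variance, a filter on dim probe sets or another probe set of a gene, 0 of the 6 genes passed. Leaving out each mouse gave -0.28 (without mouse D) to 0.35 for Cd274 and -0.04178 (without mouse D) to 0.56 for a dim probe set of Cd80, so both turned. Centring the arrays on the CD3 chains moved the median of all probe sets from -0.0889 to 0.65 by construction. It put 22412 higher (49.6%) and 232 lower, and so the ligands too, 11 of 11 probe sets and 6 of 6 genes, with 1.42 for Cd80, 1.40 for Cd86, 2.02 for Cd83, 0.79 for Cd274, 1.32 for Pdcd1lg2 and 1.501 for Icosl, and 0.65 and 0.63 for dim probe sets of Cd80 and Icosl that were below 0. The lists then had 14 higher (activation), 6 (other ligands), 4 (protein regulators), 13 (transcriptional regulators) and 2 (receptors, with 3 lower).

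All probe sets passing were 432 higher and 76 lower, but 684 and 211 without the block, 812 and 316 with it random, 684 and 207 with a trended variance, 845 and 380 at an adjusted p under 0.1, 41 lower after cyclic loess and 140 lower with the filter. Leaving out a mouse gave 0 to 348 higher and 0 to 44 lower, the 0 being without mouse A (5563 at an unadjusted p under 0.05). Without the block, 3 receptors were lower (4 with it random), 2 protein regulators and 1 activation gene higher. With a trended variance, averaged probe sets or a threshold of 0.1, 3 receptors were lower and 2 protein regulators higher, with the filter 3 receptors lower, and with the most variable probe set 2 protein regulators higher. Leaving out each mouse gave 0 to 8 class II genes, 0 to 2 transcriptional and 0 to 1 protein regulators higher, and 0 to 1 receptor lower. The causes of these changes were not tested. Signals near background limit Cd80, Cd86 and Pdcd1lg2.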
